A study of Mus musculus with 4 samples.

Results

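The genes described here are 28 genes of cholesterol synthesis, sterol sensing, intracellular cholesterol transport and cholesterol efflux, taken by symbol from a table of 28649 genes, in which each has 1 row. They were measured by RNA-seq in cultured fibro-adipogenic progenitors (FAPs), Sca1-positive mesenchymal cells sorted from mouse skeletal muscle. There were 2 libraries from miR-206 KO mice and 2 from wild-type C57Bl/6 mice, and all cells had been grown to about 90% confluence and then kept in DMEM with 10% horse serum (BM) for 48 hours. The sources used here do not give the strain background of the KO mice, their ages or whether replicates came from separate animals, so a strain difference and the loss of miR-206 cannot be told apart, and the p-values speak only of the spread among the 4 libraries, which may be technical. The level of Mir206 was not analysed here, and the genotypes are therefore taken from the labels alone.

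Cells make cholesterol from acetyl-CoA through mevalonate, farnesyl diphosphate, squalene and lanosterol. When membrane sterol is low, the escort protein SCAP carries the transcription factor SREBP-2, the product of Srebf2, to the Golgi, where it is cut and released to switch on the enzyme genes, and the INSIG proteins hold the pair back when sterol is plentiful. Excess sterol instead activates the nuclear receptor LXR, which raises the efflux pumps encoded by Abca1 and Abcg1 and the ubiquitin ligase gene Mylip. Each library held between 30550235 and 44561117 estimated counts. FAP markers (Pdgfra, Ly6a, Dcn, Lum, Col1a1 and Clec3b) were abundant as a sum in all 4 libraries. The sums were 6350 and 6190 TPM in KO cells and 5765 and 6781 TPM in wild-type cells. Single FAP markers differed in direction. Clec3b had 38.5 and 41.0 TPM in KO cells and 102 and 102 TPM in wild-type cells. Its log2 fold change was -1.36, with an edgeR quasi-likelihood adjusted p of 0.0027. Ly6a was at -0.61 log2, and Pdgfra, Dcn, Lum and Col1a1 were at 0.38, 0.49, 0.42 and 0.12 log2. In that order their edgeR adjusted p was 0.239, 0.13, 0.159, 0.0719 and 0.684. Their DESeq2 adjusted p was 0.0044, 5.1e-05, 0.0023, 2.2e-05 and 0.74, where DESeq2 called 4.62% of its genes. Whether FAP content differed between the genotypes was not tested. Muscle-lineage markers summed to 1033 and 123 TPM in KO cells and 1948 and 1143 TPM in wild-type cells, and 8 adipocyte markers to 130 and 76.1 TPM in KO cells and 683 and 285 TPM in wild-type cells. Endothelial markers summed to at most 6.37 TPM and hematopoietic markers to at most 9.25 TPM in any library, with the macrophage marker Adgre1 at 0 in all 4. In these bulk samples fewer cells of a type and less RNA per cell cannot be told apart.

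The upstream sequences of the enzyme genes are shown because many of the genes below are known targets of SREBP-2. RefSeq windows of 300 bases around the start (GRCm38.p6, the build of mm10) were at hand for 22 of the 28 genes, and 3 of them are printed 5′ to 3′ on the strand of the gene, with the sterol regulatory element and the CCAAT box, in either orientation, in capitals. Hmgcs1 and Insig1 are shown for their sterol elements, that of Insig1 in a shorter form and on the opposite strand, and Mvk for its 5 CCAAT boxes, the most of any of the 22.
Hmgcs1, chr13:119690101-119690400, plus strand: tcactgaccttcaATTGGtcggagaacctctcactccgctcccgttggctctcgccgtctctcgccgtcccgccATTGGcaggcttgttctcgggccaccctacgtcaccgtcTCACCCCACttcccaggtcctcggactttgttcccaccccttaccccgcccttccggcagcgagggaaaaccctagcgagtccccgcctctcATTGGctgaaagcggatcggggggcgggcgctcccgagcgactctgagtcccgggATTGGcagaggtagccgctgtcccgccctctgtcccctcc
Insig1, chr5:28071162-28071461, plus strand: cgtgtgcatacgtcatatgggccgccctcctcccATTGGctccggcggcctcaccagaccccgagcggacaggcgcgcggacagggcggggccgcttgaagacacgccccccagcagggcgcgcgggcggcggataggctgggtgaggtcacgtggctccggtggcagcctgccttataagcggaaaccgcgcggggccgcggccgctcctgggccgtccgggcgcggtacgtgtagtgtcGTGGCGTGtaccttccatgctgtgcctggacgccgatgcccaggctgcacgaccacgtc
Mvk, chr5:114444019-114444318, plus strand: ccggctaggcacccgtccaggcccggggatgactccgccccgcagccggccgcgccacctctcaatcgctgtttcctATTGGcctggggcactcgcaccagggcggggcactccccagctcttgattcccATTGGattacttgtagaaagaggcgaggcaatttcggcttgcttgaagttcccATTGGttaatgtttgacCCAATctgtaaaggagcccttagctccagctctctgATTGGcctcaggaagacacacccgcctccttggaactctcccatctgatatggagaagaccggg

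The sterol element searched as TCACNCCAC on both strands was found in 1 of the 22 genes, Hmgcs1, (4.55%), and in 1.46% of the 10634 genes that entered the expression fit and had a window. A shorter form, CACNCCAC, which lies inside the longer one and was chosen after the first search, was found in Hmgcs1, Insig1 and Acat2 (13.6%) and in 7.7% of the fitted genes. The CCAAT box (CCAAT), bound by NF-Y, a partner of SREBP at many of its promoters, was found in 19 of the 22 genes (86.4%) and in 42.7% of the fitted genes. The GC box (GGGCGG), bound by Sp1, was found in 21 of the 22 (95.5%) and in 67.3% of the fitted genes. The LXR element was searched as a pair of AGGTCA repeats on 1 strand with 4 bases between them. It was found in 0 of the 22 genes and in 0.0094% of the fitted genes. With matches so rare, the search cannot set these genes apart from others. No window was at hand for Fdps, Fdft1, Sqle, Stard4, Npc1 and Abcg1, so the LXR-responsive gene Abcg1 was not searched. A match is a description of the letters in the window and not a measured binding site.

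The seed sites of miR-206 were looked up because the KO cells lack that microRNA, which represses messages that pair with its bases 2 to 8, in capitals in the mature strand below (mmu-miR-206-3p, chr1:20679055-20679076, plus strand, RefSeq). In the sites beneath it, cut from the longest GENCODE M21 3′ UTR of each gene, capitals mark the site that was searched. ACATTCC pairs with bases 2 to 8, CATTCCA pairs with bases 2 to 7 and has an A opposite base 1, and the 8-letter ACATTCCA of Insig1 does both.
miR-206: uGGAAUGUaaggaagugugugg
Insig1: tcttctttggaACATTCCAtcc
Srebf2: ttgttacgtttCATTCCAgttt
Lss: cagatcactgtACATTCCctta
Sc5d: cagccagtcagCATTCCAgagt
Abca1: tcattggccctCATTCCAagca
Abcg1: gccaaagaaccCATTCCAtcca
Mylip, site 1: gggacacggacACATTCCttga
Mylip, site 2: ccgtttcccctCATTCCAcacc

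These 7 genes were 25% of the 28, against 17.9% of 21193 genes with an annotated 3′ UTR, and the median UTR was 1532.5 bases long in the 28 genes against 1083 bases in all genes. The fold changes of the 7 are given in the sections on their roles.

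Levels per unit of transcript length, in TPM, differed widely among the 28 genes. Npc2, a lysosomal protein that hands cholesterol to NPC1, was the highest, at 324 and 308 TPM in KO cells and 347 and 395 TPM in wild-type cells. Fdps, which makes farnesyl diphosphate, came next, at 176 and 242 TPM in KO cells and 225 and 262 TPM in wild-type cells. The 16 other synthesis enzymes besides Fdps and Dhcr7 had mean levels over the 4 libraries from 37.6 TPM (Tm7sf2) to 129 TPM (Msmo1), and Dhcr7 had 33.3 TPM. The LXR-responsive genes Mylip, Abca1 and Abcg1 were the lowest 3, with mean levels of 14.6, 11.6 and 2.24 TPM. In the order of mean levels, each gene from Msmo1 down to Stard4 overlapped with its neighbour over the 4 libraries. At the top, the values of Npc2 lay above those of Fdps, and those of Fdps above those of Msmo1. At the bottom, those of Stard4 lay above Mylip, Mylip above Abca1 and Abca1 above Abcg1.

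**Figure D1:**
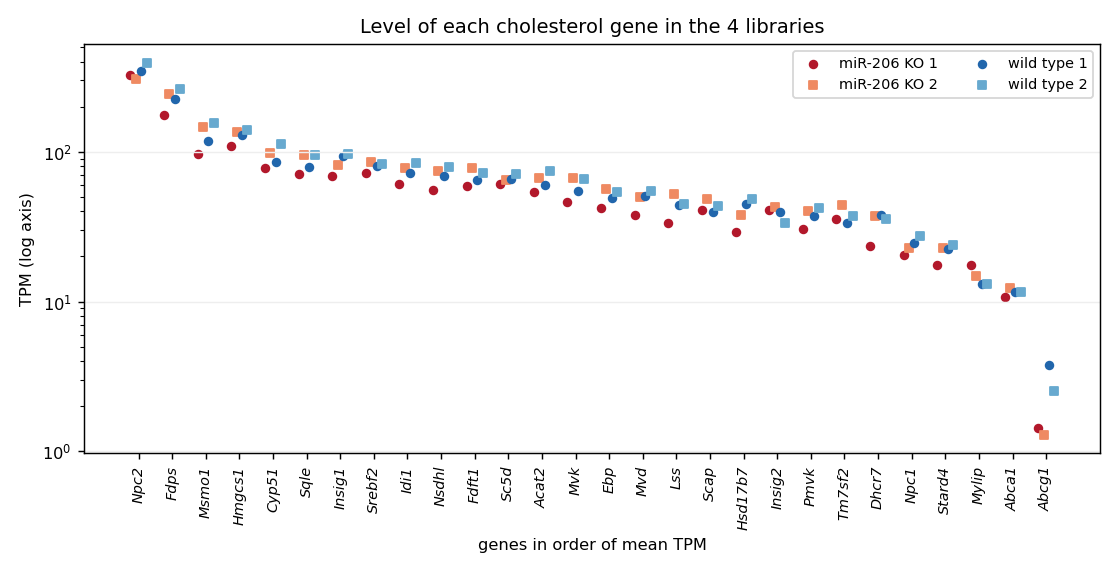
Level of each of the 28 genes in TPM (log axis) in the 2 KO libraries and, to their right, the 2 wild-type libraries, in order of mean level. Npc2 and Fdps stand at the top, Abcg1 stands alone at the bottom at 1.42 and 1.29 TPM in KO cells and 3.75 and 2.52 TPM in wild-type cells, and KO library 1 is the lowest point of most columns.

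All 28 genes entered the edgeR fit of KO over wild type, and 0 of them passed an adjusted p of 0.05, a threshold that 0.427% of the 14507 fitted genes passed. An unadjusted edgeR p under 0.05 was found for 5 of the 28 (17.9%), against 14.3% of all fitted genes. These were Dhcr7, Insig1, Npc1 and Abcg1, lower in KO, where 7.18% of fitted genes had such a p on the lower side, and Mylip, higher in KO, where 7.16% had one on the higher side. DESeq2 called 2 of the 28, Insig1 and Abcg1, both lower, against 4.62% of its 14276 genes, and edgeR with no low-count filter called the same 2 genes, against 2.46% of 19942 genes. limma-voom called 0.

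The fold changes leaned to the lower side. Of the 28, 23 had a negative log2 fold change, against 50.4% of fitted genes, and the median was -0.16 log2 against -0.00 over all of them. The lean depended on single libraries. The median was -0.00 without KO replicate 1, -0.31 without KO replicate 2, -0.24 when wild type replicate 1 was left out and -0.07 without wild type replicate 2. Both KO libraries lay below both wild-type libraries in 8 of the 28 genes (28.6%), against 24.4% of fitted genes, and above both in 1 (3.57%), against 23.8%.

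**Figure D2:**
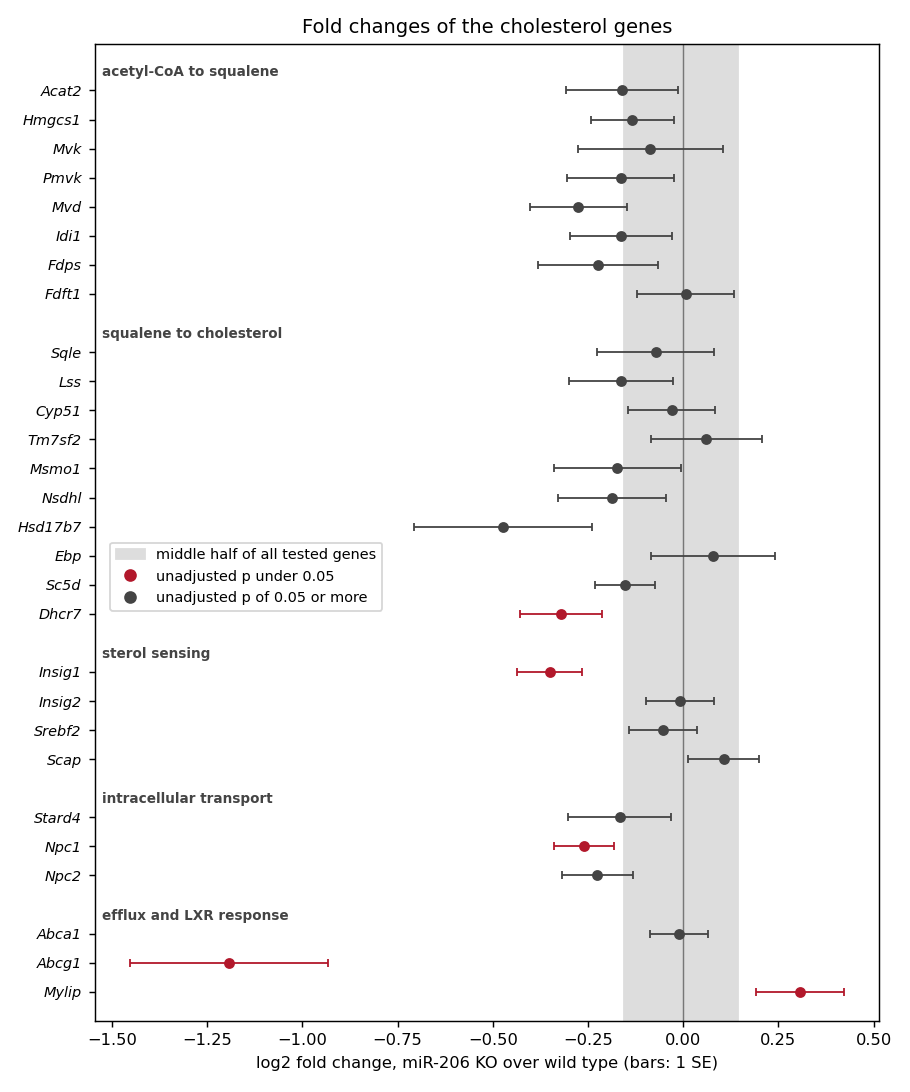
Log2 fold change of each gene, KO over wild type, from the edgeR fit on counts, with bars of 1 SE, grouped by role, and the grey band running from the lower to the upper quartile of all fitted genes (-0.16 to 0.14). Red points had an unadjusted p under 0.05, and none of the 28 passed after adjustment. Abcg1 lies farthest out, at -1.19.

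The 18 synthesis enzymes had the same lowest library, and most of them differed more between replicates than between genotypes. On the CPM scale, which divides counts by TMM-scaled library size, KO replicate 1 was the lowest of the 4 libraries for 18 of 18 enzymes, against 25.8% of fitted genes. Replicate 2 lay above replicate 1 in both genotypes for 17 of 18, against 27.7% of fitted genes. The median enzyme was 0.36 log2 higher in KO replicate 2 than in KO replicate 1 and 0.18 log2 higher in wild type replicate 2 than in wild type replicate 1, while the median over all fitted genes was 0.00 for both differences. A gap between replicates of a genotype exceeded the gap between the genotype means in 16 of the 18 enzymes, against 65.6% of fitted genes. Both KO libraries lay below both wild-type libraries in 4 of the 18 (22.2%), Mvd, Hsd17b7, Sc5d and Dhcr7, close to the 24.4% of all fitted genes. The highest library was wild type replicate 2 in 13 of the 18 (72.2%), against 21% of fitted genes. These counts describe genes of 1 pathway in the same 4 libraries and are not independent of each other.

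The order of the libraries in the median enzyme level was not that of the muscle-lineage or adipocyte marker sums. What part cell content or sequencing depth had in the enzyme levels was not tested. KO replicate 2, with the lowest muscle-lineage and adipocyte marker sums, had median enzyme levels 0.08 log2 above the gene means, and KO replicate 1 had them 0.26 log2 below. Wild type replicate 1, with the highest marker sums, lay 0.01 log2 below the gene means and wild type replicate 2 lay 0.17 log2 above. The total estimated counts of 35521839 in KO replicate 1 and 30550235 in KO replicate 2, against 34827986 in wild type replicate 1 and 44561117 in wild type replicate 2, stood in another order than the median enzyme levels.

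**Figure D3:**
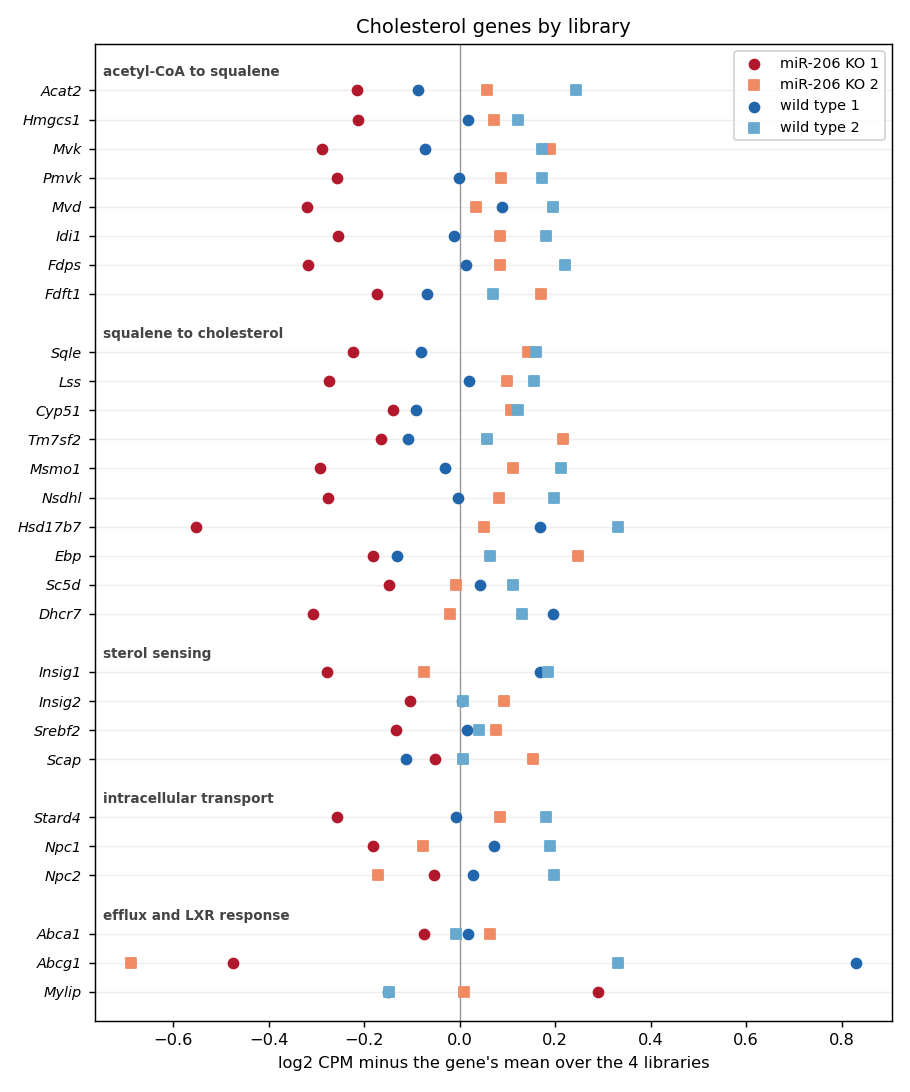
Log2 CPM of each gene in each library minus the gene's mean over the 4 libraries, grouped by role, for the KO libraries in reds and the wild-type libraries in blues. KO replicate 1 is the leftmost point in each of the 18 synthesis enzymes. Both KO points lie left of both wild-type points in Mvd, Hsd17b7, Sc5d, Dhcr7, Insig1, Npc1, Npc2 and Abcg1, and right of them in Mylip.

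Of the 8 enzymes that lead from acetyl-CoA to squalene, 7 had negative fold changes and 0 had an unadjusted p under 0.05. Hmgcs1, the HMG-CoA synthase, had 214 and 261 CPM in KO cells and 251 and 270 CPM in wild-type cells. The genotypes overlapped, and the log2 fold change was -0.13 (SE 0.11). Fdps had 123 and 162 CPM in KO cells and 154 and 178 CPM in wild-type cells, again overlapping, with a log2 fold change of -0.22 (SE 0.16). Mvd, which makes isopentenyl diphosphate, was the 1 of the 8 whose genotypes did not overlap. Both its KO libraries lay below, as in 12.5% of the 8 and in 24.4% of fitted genes. Mvd had 38.6 and 49.4 CPM in KO cells and 51.3 and 55.2 CPM in wild-type cells. Its log2 fold change was -0.28 (SE 0.13), with an edgeR adjusted p of 0.409. The acetoacetyl-CoA thiolase gene Acat2, the kinase genes Mvk and Pmvk and the isomerase gene Idi1 had log2 fold changes of -0.16, -0.09, -0.16 and -0.16. Fdft1, the squalene synthase gene at the branch to sterols, had 116 ± 19.6 CPM in KO cells and 116 ± 7.85 CPM in wild-type cells (SD, n = 2 each).

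Of the 10 enzymes from squalene to cholesterol, 8 had negative fold changes and 1, Dhcr7, had an unadjusted p under 0.05. Dhcr7, which reduces the last double bond to give cholesterol, had 31.6 and 38.5 CPM in KO cells and 44.8 and 42.8 CPM in wild-type cells. Both KO libraries were lower, and the log2 fold change was -0.32 (SE 0.11, edgeR quasi-likelihood adjusted p = 0.267). Hsd17b7, a 3-ketosteroid reductase of the pathway, had the most negative fold change of the enzymes, -0.47 log2 (SE 0.23), from 41.2 and 62.6 CPM in KO cells and 67.8 and 76.0 CPM in wild-type cells. Its KO libraries differed from each other 1.52-fold, its edgeR adjusted p was 0.477, and the fold change was -0.20 without KO replicate 1 and -0.80 without KO replicate 2.

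The most abundant late enzymes showed a gap between replicates and none between genotypes beyond it. Sqle, the squalene epoxidase gene, had 120 and 155 CPM in KO cells and 132 and 156 CPM in wild-type cells. Cyp51, the lanosterol demethylase gene, had 188 and 223 CPM in KO cells and 194 and 226 CPM in wild-type cells. Msmo1, the sterol C4 methyl oxidase gene, had 101 and 133 CPM in KO cells and 121 and 143 CPM in wild-type cells. In all of them the genotypes overlapped, and their log2 fold changes were -0.07 (SE 0.15), -0.03 (SE 0.11) and -0.17 (SE 0.17). Sc5d, the lathosterol desaturase gene, did not overlap, with 68.3 and 75.3 CPM in KO cells and 77.9 and 81.8 CPM in wild-type cells, at -0.15 log2 (SE 0.08). The cyclase gene Lss and the C4 decarboxylase gene Nsdhl were at -0.16 and -0.19 log2, and the sterol reductase gene Tm7sf2 and the isomerase gene Ebp at 0.06 and 0.08 log2.

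Among the sensing genes, Insig1, itself an SREBP target, differed most. It had 111 and 128 CPM in KO cells and 152 and 153 CPM in wild-type cells, so that both KO libraries lay below the wild type. The log2 fold change was -0.35 (SE 0.09, edgeR quasi-likelihood adjusted p = 0.149). It ranged from -0.45 to -0.25 when a library was left out. DESeq2 gave an adjusted p of 0.0317, and edgeR with no low-count filter 0.0439. The adjusted p was 0.18 by limma-voom, 0.197 by edgeR without robust estimation and 0.087 by edgeR with a replicate block. In the limma fits on log2 TPM with pseudocounts of 1 and 0.1 it was 0.40 and 0.45. Insig1 (chr5:28071363-28078662, GRCm38) carries the 8-letter miR-206 site printed above, and its values were the lower ones in the libraries labelled KO. Whether miR-206 acts on this site was not tested.

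The other sensing genes stayed within the spread of the libraries. Srebf2 had 222 and 256 CPM in KO cells and 246 and 250 CPM in wild-type cells, with a log2 fold change of -0.05 (SE 0.09). Scap had 108 and 124 CPM in KO cells and 103 and 112 CPM in wild-type cells, at 0.11 log2 (SE 0.09). Insig2, the INSIG gene that is not driven by SREBP-2, had 36.6 and 41.96 CPM in KO cells and 39.5 and 39.6 CPM in wild-type cells, at -0.01 log2 (SE 0.09). Insig1 and Insig2 thus had different fold changes, but the difference between these genes was not tested.

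Among the transport genes inside the cell, fold changes were negative in 3 of 3 and the median was -0.23 log2. Npc1, which exports cholesterol from lysosomes together with Npc2, had 66.5 and 71.5 CPM in KO cells and 79.2 and 85.9 CPM in wild-type cells, which gave -0.26 log2 (SE 0.08, edgeR quasi-likelihood adjusted p = 0.218). Npc2 had 642 and 593 CPM in KO cells and 680 and 765 CPM in wild-type cells, which gave -0.23 log2 (SE 0.09, edgeR quasi-likelihood adjusted p = 0.349). In both genes the KO libraries lay below the wild type, and Npc2 was the 1 member of these with KO replicate 2 below KO replicate 1. Stard4, a soluble sterol carrier and SREBP target, followed the enzymes instead, with 47.7 and 60.5 CPM in KO cells and 56.7 and 64.7 CPM in wild-type cells.

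The LXR-responsive genes did not move as a group. Abcg1 (chr17:31057675-31117988, GRCm38), which pumps cholesterol to HDL particles, had 3.01 and 2.59 CPM in KO cells and 7.52 and 5.30 CPM in wild-type cells, from 104 and 79.0 estimated counts in KO cells and 268 and 237 in wild-type cells. Both KO libraries were lower, the log2 fold change was -1.19 (SE 0.26), and the edgeR quasi-likelihood adjusted p was 0.123. It ranged from -1.42 to -0.92 when a library was left out, with edgeR adjusted p between 0.17 and 0.52, and DESeq2 gave an adjusted p of 0.0157. Abcg1, the adipocyte marker sum and the muscle-lineage marker sum stood in the same order across the 4 libraries. From the highest, the order was wild type replicate 1, wild type replicate 2, KO replicate 1 and KO replicate 2. The share of fitted genes in that order is not given here. Both KO libraries lay below the wild type in 7 of 7 fitted adipocyte markers and 4 of 7 muscle-lineage markers, against 24.4% of fitted genes. By edgeR 1 adipocyte marker, Cidec, and 0 muscle-lineage markers were called lower, against 0.427% of fitted genes called on either side. DESeq2 called Cidec, Pparg, Plin1 and Adipoq lower (adjusted p 2.5e-07, 1.1e-06, 0.0061 and 0.012), against 4.62% of its genes called on either side. It did not call Fabp4, Cfd or Retn (DESeq2 adjusted p 0.055, 0.26 and 0.29) or any muscle-lineage marker (0.72 or more). The adipocyte marker Lep was at 0 in all libraries but KO replicate 1. The part of these cells in the Abcg1 values was not tested.

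Abca1, which pumps cholesterol to lipid-poor apolipoprotein, had 69.5 and 76.5 CPM in KO cells and 74.2 and 72.9 CPM in wild-type cells. The genotypes overlapped at -0.01 log2 (SE 0.08). Mylip (chr13:45389742-45412022, GRCm38), whose product limits the uptake of lipoprotein, was higher in KO cells, with 32.4 and 26.6 CPM against 23.9 and 23.9 CPM in wild-type cells. Its log2 fold change was 0.31 (SE 0.12, edgeR quasi-likelihood adjusted p = 0.306), and it was 0.16 without KO replicate 1 and 0.44 without KO replicate 2. Mylip was the 1 gene with miR-206 seed sites that was higher in KO cells. The other 6 had negative fold changes, and the median over the 7 was -0.15 log2, against -0.16 log2 over the 21 genes without a site.

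Genes that border on this pathway were read from 6 lists of 56 genes, of which 55 entered the fit. By edgeR 0 of the 55 changed, against 0.427% of all fitted genes. An unadjusted p under 0.05 was found for 8 (14.5%), 4 on each side, a share close to the 14.3% of all fitted genes. limma-voom called 0, and DESeq2 called 1, Nceh1, against 4.62% of its genes. Nceh1, which releases cholesterol from its esters, had 23.5 and 24.5 CPM in KO cells and 38.1 and 30.5 CPM in wild-type cells, which gave -0.51 log2 (SE 0.12, edgeR quasi-likelihood adjusted p = 0.145, DESeq2 adjusted p = 0.0492). Nr1h3, which encodes LXR alpha, had 9.18 and 7.79 CPM in KO cells and 12.2 and 10.5 CPM in wild-type cells, at -0.42 log2 (SE 0.16, edgeR quasi-likelihood adjusted p = 0.321). In both genes the KO libraries lay below the wild type. Nr1h3 stood in the same library order as Abcg1 and as both the adipocyte and the muscle-lineage marker sums.

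The library pattern of the enzymes was compared with that of these lists. Of 11 other SREBP targets, mostly fatty acid genes, 11 had negative fold changes and KO replicate 1 was the lowest library in 11. Both KO libraries lay below both wild-type libraries in 8 of the 11, against 24.4% of fitted genes and 4 of the 18 enzymes, and replicate 2 lay above replicate 1 in both genotypes in 6, against 27.7% of fitted genes and 17 of the 18 enzymes. Their median was -0.19 log2, and Pcyt2, of phosphatidylethanolamine synthesis, had the smallest p, with 66.4 and 67.8 CPM in KO cells and 75.3 and 78.1 CPM in wild-type cells (edgeR quasi-likelihood adjusted p = 0.278). In 4 further genes of sterol synthesis and uptake, of which 1 is also among the 11, KO replicate 1 was lowest in 3 and replicate 2 lay above replicate 1 in both genotypes in 4, with a median of -0.17 log2. In the other mevalonate branches, such as prenylation and ubiquinone synthesis, KO replicate 1 was lowest in 3 of 11, in SREBP control genes in 4 of 10, in storage and carrier genes in 5 of 14 and in LXR and its targets in 1 of 6. The median fold changes of those 4 lists were 0.01, 0.00, -0.06 and -0.04 log2. Pggt1b, a prenyltransferase subunit gene, and Erlin1, of sterol-dependent degradation at the endoplasmic reticulum, had the smallest p of their lists, at 0.39 and 0.20 log2 with edgeR quasi-likelihood adjusted p of 0.27 and 0.329.

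**Figure D4:**
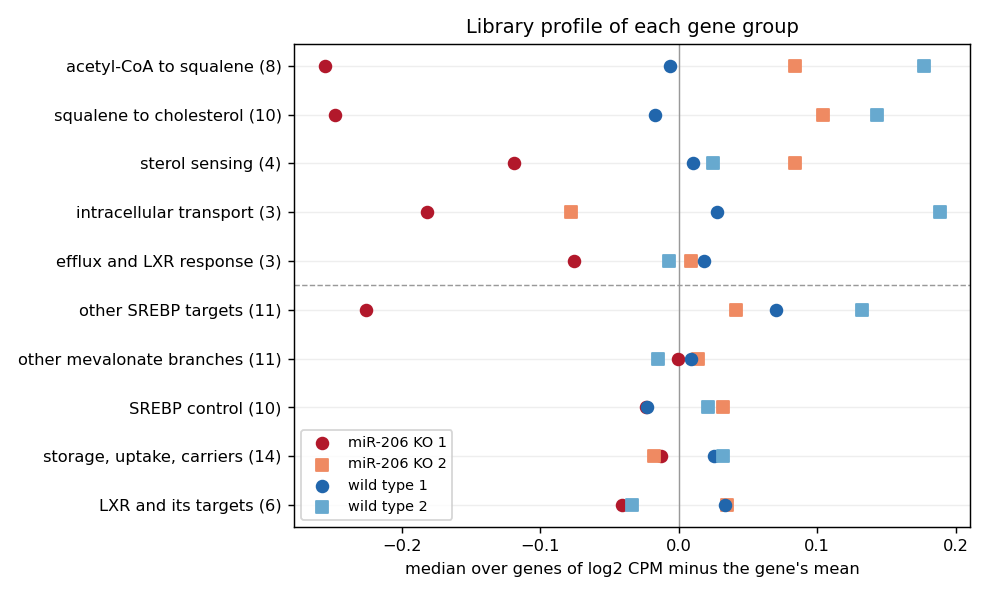
Median over the genes of each group of log2 CPM minus the gene's mean, in each library, for the 5 roles above the dashed line and 5 bordering lists below it (number of genes in brackets). KO replicate 1 lies farthest left of the libraries in all 5 roles and in the other SREBP targets. It lies at -0.26 and -0.25 in both enzyme groups and at -0.23 in the other SREBP targets. In sterol sensing, intracellular transport, and efflux and LXR response it lies at -0.12, -0.18 and -0.08. Gene by gene it is the lowest library in 3 of 4, 2 of 3 and 1 of 3 of these. Of the last 3 genes, Abcg1 is lowest in KO replicate 2 and Mylip is highest in KO replicate 1. All libraries lie between -0.04 and 0.03 in the 4 lists at the bottom.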

How the data were processed

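RNA was sequenced from 4 libraries, 2 miR-206 KO and 2 wild type, from a stranded mRNA kit per the labels' protocols. FastQC, kallisto and mm10 appear in the submitters' processing notes. Tool versions, the annotation and the summing of transcripts were not given in the sources used here. The authors deposited estimated counts per gene, not normalized, and TPM values, scaled for depth and length. A further sheet that the authors deposited holds their log2 difference of genotype mean TPM.

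For the test of genotype, estimated counts were rounded and fitted by edgeR 4.0.16 under R 4.3.3 (quasi-likelihood F-test, robust, TMM, filterByExpr, two-sided, Benjamini-Hochberg over 14507 genes, threshold 0.05). The SE is the size of the log2 fold change over the square root of F. Levels are TPM, fitted values CPM. Alternatives used DESeq2 1.42.0, limma 3.58.1 (voom, and log2 of TPM plus a pseudocount of 1 or 0.1, where either genotype averaged 1 TPM or more), other scaling, no filter, no robust estimation, a replicate block and each library left out. Code was tested on simulated counts.

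Members and lists were chosen with earlier results of these data known. The rule for named genes took all 28 members, values by library for those with an unadjusted p under 0.05, the 6 of highest TPM and at least 1 of each role, and the gene of smallest p in each bordering list. Values by library of the other members printed, such as Mvd, Hsd17b7, Sc5d and Stard4, were chosen after they were seen. Single genes of the list of 4 further sterol genes are not named. Replicates of a genotype differed beyond sampling noise, with a chi-square per gene of 37.7 for KO and 28.8 for wild type.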

Additional observations from a re-analysis of the deposited data

How the results depend on the processing

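The comparison of all genes depends on the method. Against 62 genes changed in the edgeR fit, the count was 491 with no low-count filter, 660 with DESeq2, 14 with limma-voom, 11 without robust estimation, and 6 and 10 with limma on log2 TPM with pseudocounts of 1 and 0.1. It ran from 7 to 77 when a library was left out. Of the 28 cholesterol genes, 2 changed with no filter and 2 with DESeq2, against 0. Of the 14 storage, uptake and carrier genes 1 and 1 changed, against 0. The shares of all genes that changed were 2.46% with no filter and 4.62% with DESeq2, against 0.427%. The median of the 28 ran from -0.31 to -0.00 when a library was left out. With a replicate block 265 genes changed and 0 of the 28; the labels do not say that the numbers pair libraries, and the difference of replicate 1 from 2 correlated at 0.187 between the genotypes over 14507 genes.

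Over 12 alternatives 15 of the 28 genes kept their sign. Fdft1 turned to -0.0028 with limma-voom, -0.0017 with the replicate block, and -0.0059 and -0.0061 in the TPM fits, in which Ebp turned to -0.067 and -0.068 and Insig2 to 0.19 and 0.19. With a library left out the log2 fold change ran from -0.32 to 0.014 for Acat2, -0.28 to 0.0021 for Hmgcs1, -0.34 to 0.13 for Mvk, -0.17 to 0.17 for Fdft1, -0.27 to 0.10 for Sqle, -0.36 to 0.012 for Lss, -0.16 to 0.089 for Cyp51, -0.14 to 0.24 for Tm7sf2, -0.39 to 0.015 for Msmo1, -0.15 to 0.28 for Ebp, -0.11 to 0.086 for Insig2, -0.16 to 0.048 for Srebf2 and -0.079 to 0.058 for Abca1. Those fits leave 1 library in a genotype, which is assumed to vary like the other genotype. The cause of these differences was not tested.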

Other observations

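Counts and TPM did not tell the same story for every gene. The estimated counts per TPM of a gene, set against the median of each library, follow the mean length of the transcripts to which its reads were assigned. This ratio varied by less than 1.1 times between libraries in 20 of the 28 genes and by more in 8, all but 1 of them enzymes of the later steps. It varied 1.33 times for Insig2, 1.26 for Dhcr7, 1.21 for Hsd17b7, 1.20 for Lss, 1.18 for Cyp51, 1.14 for Ebp, 1.14 for Tm7sf2 and 1.13 for Msmo1, where the median over 14360 fitted genes was 1.05.

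In 2 genes the scale changes which libraries overlap. Insig2 had 40.9 and 42.6 TPM in KO cells and 39.6 and 33.7 TPM in wild-type cells, not overlapping, while its CPM values overlapped. Dhcr7 had 23.4 and 37.0 TPM in KO cells and 37.6 and 35.3 TPM in wild-type cells, overlapping, while its CPM values did not. In the authors' deposited table the log2 difference was 0.19 for Insig2 and -0.05 for Ebp, of the other sign than in the fit on counts, and 26 of the 28 genes had the same sign. Which transcripts took the reads was not tested. Counts were fractional by more than 0.01 in at least 1 library for 18 of the 28 genes, so for these some reads had been divided by estimation, and between which transcripts or genes is not given in the sources used here.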
